A study of Mus musculus with 18 samples.

Results

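Glycolysis in male germ cells runs largely on isoforms that somatic cells do not use, and 10 genes of this set were examined at the level of mRNA in round spermatids (RS). They were chosen by name: Gapdhs, Gapdh, Pgk2, Pgk1, Ldhc, Ldha, Aldoart1, Hk1, Eno4 and Slc2a3, which are 10 of the 54232 genes in the count table, and all 10 were found there and passed the filter on low counts. The testis-specific isoforms Gapdhs, Pgk2 and Ldhc were compared with their somatic paralogs Gapdh, Pgk1 and Ldha. RS are haploid germ cells that have finished meiosis but have not yet elongated, and they were isolated by sedimentation from testes of mice aged between 75 and 85 days. The series has 6 libraries each of wild-type mice (WT), of GRTH knock-out mice (KO), which lack the RNA helicase encoded by Ddx25, and of GRTH knock-in mice (KI), which carry a human GRTH gene with a missense mutation and lack the phosphorylated form of the protein. The study describes both mutants as sterile, with spermatids that stop before they elongate, so the testes from which KO and KI cells were taken did not hold the later spermatids present in WT testes. RNA of all 3 genotypes was sequenced without polyA selection. No source used here says whether each library came from a separate animal, so the p-values below measure the spread between libraries.

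Glucose enters the cell through transporters such as Slc2a3, is phosphorylated by hexokinase (Hk1) and is split by aldolase (Aldoa in many tissues, Aldoart1 in sperm). Glyceraldehyde-phosphate dehydrogenase (Gapdhs in sperm, Gapdh elsewhere) and phosphoglycerate kinase (Pgk2 in sperm, Pgk1 elsewhere) then carry out the oxidation and the first step that yields ATP, enolase (Eno4 in sperm) makes phosphoenolpyruvate, and lactate dehydrogenase (Ldhc in the germ line, Ldha elsewhere) interconverts pyruvate and lactate. In mature sperm several of these enzymes are bound to the fibrous sheath of the tail, and Gapdhs, Pgk2, Ldhc and Eno4 are each needed for normal sperm motility in mice. Pgk1 is X-linked, and its autosomal retrocopy Pgk2 is used when the X chromosome is silenced in meiosis.

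The genes lie on 7 chromosomes of GRCm38. Gapdhs (ENSMUSG00000061099, chr7:30729775-30743681, minus strand), Ldha (ENSMUSG00000063229, chr7:46841475-46855627, plus strand) and Ldhc (ENSMUSG00000030851, chr7:46861203-46878142, plus strand) are on chromosome 7, where 5575 bases separate the end of Ldha from the start of Ldhc. Gapdh (ENSMUSG00000057666, chr6:125161715-125166467, minus strand) and Slc2a3 (ENSMUSG00000003153, chr6:122727809-122801640, minus strand) are on chromosome 6. Pgk2 (ENSMUSG00000031233, chr17:40207018-40208609, minus strand) and Aldoart1 (ENSMUSG00000059343, chr4:72850583-72852634, minus strand) each have a coding transcript of 1 exon, as retrocopies do. Pgk1 (ENSMUSG00000062070, chrX:106187100-106203699, plus strand), Hk1 (ENSMUSG00000037012, chr10:62268855-62379908, minus strand) and Eno4 (ENSMUSG00000048029, chr19:58943425-58971421, plus strand) have coding transcripts of 11, 18 and 14 exons.

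The 250 bases before the start site are shown for the 3 members with the largest falls and for Ldhc, the germ-line gene of the 3 pairs that was not called. The sequences are RefSeq's, of GRCm38.p6, each written in the direction of transcription, and capitals mark exact matches on either strand to TGACGTCA (the cAMP response element), its core TGACG, the CCAAT box, the GC box GGGCGG, the TATA box TATAAA or the variant TGACATCA. The variant, which differs from the cAMP response element by 1 base, was added after the sequences had been read. The Gapdhs window is chr7:30743682-30743931 on the minus strand, the Hk1 window chr10:62379909-62380158 on the minus strand, the Pgk2 window chr17:40208610-40208859 on the minus strand and the Ldhc window chr7:46861013-46861262 on the plus strand. Gapdhs, Hk1, Ldhc and Ldha have 2 promoter entries each, and only the entry nearest the start of the gene in the count table was used. The RefSeq start sites of Ldhc, Ldha and Gapdh lie inside the genes as located above, so part or all of each of these windows does too.
Gapdhs: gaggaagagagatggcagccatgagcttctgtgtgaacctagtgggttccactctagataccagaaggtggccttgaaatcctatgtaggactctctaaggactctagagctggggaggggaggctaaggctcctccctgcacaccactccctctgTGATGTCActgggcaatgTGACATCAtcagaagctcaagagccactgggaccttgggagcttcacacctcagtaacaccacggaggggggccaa
Hk1: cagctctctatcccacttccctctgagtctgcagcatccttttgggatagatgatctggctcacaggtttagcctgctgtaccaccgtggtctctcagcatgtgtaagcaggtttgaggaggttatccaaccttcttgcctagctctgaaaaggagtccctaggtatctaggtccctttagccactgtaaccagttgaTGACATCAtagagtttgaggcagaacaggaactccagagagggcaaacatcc
Pgk2: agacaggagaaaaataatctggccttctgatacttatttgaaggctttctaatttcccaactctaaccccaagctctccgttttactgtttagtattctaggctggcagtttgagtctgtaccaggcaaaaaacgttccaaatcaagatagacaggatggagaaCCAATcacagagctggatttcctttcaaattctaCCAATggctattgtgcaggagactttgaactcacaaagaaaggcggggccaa
Ldhc: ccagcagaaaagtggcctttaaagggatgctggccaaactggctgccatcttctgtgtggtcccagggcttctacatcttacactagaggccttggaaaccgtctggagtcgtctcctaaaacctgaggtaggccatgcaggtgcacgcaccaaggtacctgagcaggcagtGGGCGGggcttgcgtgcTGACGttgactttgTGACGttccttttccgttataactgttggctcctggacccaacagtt

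The Gapdhs window held 2 matches to TGACATCA, starting 94 and 76 bases before the start site, and the Hk1 window held 1, starting 52 bases before it. This motif was found in 2.84% of the 32536 promoter windows of the same length and in none of the other member windows. It was chosen after these sequences were read, so the share does not test how unusual its presence in Gapdhs and Hk1 is. The Pgk2 window held 2 CCAAT matches (33.8% of all windows have at least 1). The Ldhc window held a GC box (33.0% of all windows) and 2 matches to TGACG (17.9% of all windows), the farther of them 61 bases before the start site. Of the somatic paralogs, Ldha held the full TGACGTCA 12 bases before its start site, a motif found in 1.56% of all windows, and the TGACG core lies inside it. Pgk1 held 1 CCAAT match and 1 GC box, and the Gapdh and Eno4 windows held none of these motifs. No member window held TATAAA, which 12.3% of all windows have. Such matches describe the letters of the window and not the binding of any factor. Slc2a3 and Aldoart1 have no entry in the table of promoters.

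Libraries had between 18766971 and 26776555 counts on genes, and the members were counted between 89 and 61043 times per library, so that none was near the floor of 3 counts. Ddx25, the targeted gene, lay between 538 and 607 CPM in WT (counts scaled to library size, with TMM factors) and between 47.7 and 90.9 in KO. In KI it lay between 0.0456 and 0.519 except in the library labelled KI 4, where it was 56.9. The library labelled KI 4 was also closer to KO 2 than any other 2 libraries were to each other (pair index 1.59, where 1 is counting noise), and the levels of the 10 members in it differed from those in KO 2 by between 0.154% and 11.4%. Values for KI are therefore given with it and, where they matter, without it. Close pairs also stood within genotypes. In WT they were WT 1 and WT 2 (index 2.23), WT 3 and WT 4 (2.88), and WT 5 and WT 6 (3.02). In the mutants they were KO 4 and KO 5 (2.12), KI 1 and KI 2 (2.63), and KI 3 and KI 5 (2.68). Every WT library is in such a pair, so the 6 WT libraries may hold only 3 independent samples. WT 1 and WT 2 stood apart from the other WT libraries for several members.

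Defining markers of RS were present, the 5 of them summing to between 912 and 1421 CPM in WT, between 744 and 1329 in KO and between 713 and 1101 in KI. All 8 late spermatid markers (Prm1, Prm2, Tnp1, Tnp2, Smcp, Akap4, Odf1, Oaz3) were lower in KO and in KI than in WT. Their sum fell from a median of 19393 CPM in WT to 3546 in KO and 3209 in KI. The study describes Prm2 and Tnp2 as transcribed already in RS and translated later, so this list is not particular to later cells. All 6 Leydig cell markers were higher, with sums between 10.8 and 22.4 CPM in WT, 33.9 and 57.9 in KO and 14.5 and 74.4 in KI. Spermatocyte markers, 9 in number, had a median sum of 1370 CPM among WT libraries, against 1474 (KO) and 1501 (KI). Medians of the RS sum were 1303, 1085 and 990 in the same order. Of the 9 spermatocyte markers, KO had 4 called higher and 1 lower (adjusted p under 0.1, edgeR), and KI had 3 and 1. Some spermatogonium and macrophage markers were also called higher in each mutant, and some Sertoli cell markers lower. In these bulk samples, fewer cells of a type and less RNA per cell cannot be told apart.

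In WT, the germ-line isoforms were the leading transcripts of the set when counts were divided by gene length (CPM per kilobase of merged exons). Ldhc was highest at 1437 ± 115 (SD, n = 6), followed by Gapdhs at 486 ± 58.6 and Pgk2 at 359 ± 40.2. Only the ranges of Gapdhs (388 to 541) and Pgk2 (298 to 398) overlapped among these 3. Hk1 (146 ± 37.3), Slc2a3 (133 ± 35.1) and Ldha (131 ± 10.5) came next, and their ranges overlapped. Aldoart1 (51.3 ± 13.4) and Eno4 (20.8 ± 3.31) stood apart below them. Gapdh (2.55 ± 0.238) and Pgk1 (2.39 ± 0.319) were lowest and overlapped.

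In KO and KI the order changed. Ldhc stayed first (1167 ± 222 CPM per kilobase in KO, 1144 ± 313 in KI) and Slc2a3 moved to the second place (229 ± 40.0 and 223 ± 41.8), while Gapdhs took the fifth place (103 ± 44.7 and 82.3 ± 13.4). When the length of the longest protein-coding transcript replaced that of the merged exons, a choice made after seeing the data, Gapdhs held the second place in WT and the fifth in KO and KI, and Ldha moved above Pgk2 in both mutants. The plot of levels per length shows these orders.

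**Figure D1:**
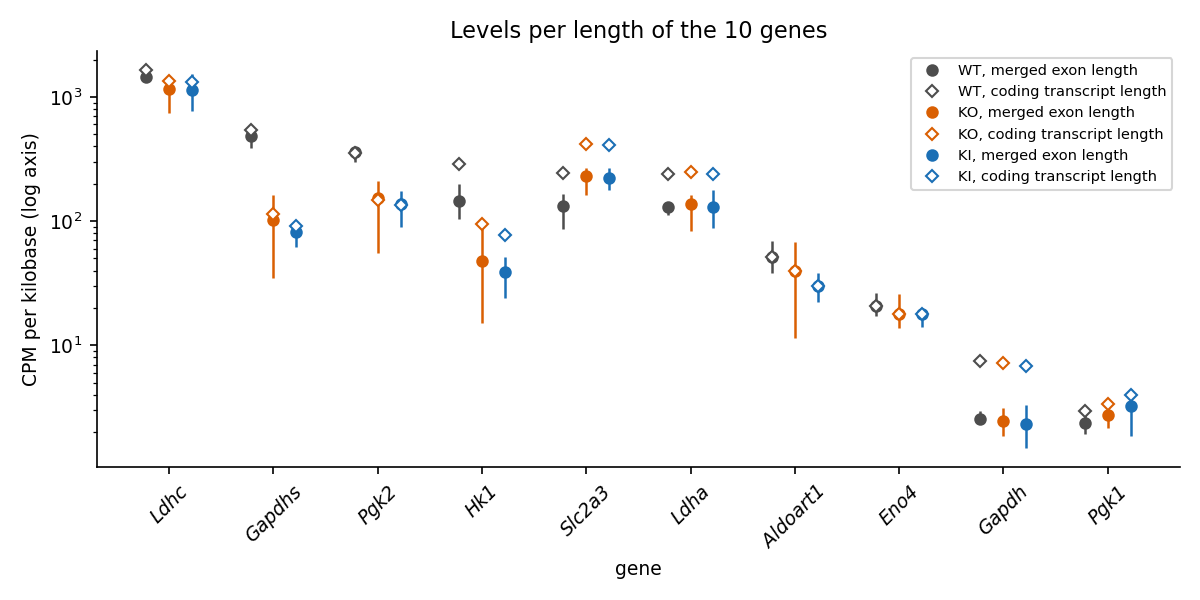
Level per length of each gene, in CPM per kilobase on a log axis, for WT (grey), KO (orange) and KI (blue); filled points are means over 6 libraries with merged exon lengths, vertical lines their range, and open diamonds the means with the coding transcript length. Ldhc leads in every genotype, Gapdhs drops from 486 in WT to 103 in KO and 82.3 in KI, and Gapdh and Pgk1 stay lowest.

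Comparing KO and KI with WT asks which of these genes depend on GRTH and on its phosphorylated form. In KO, 3 of the 10 members were lower than in WT by any amount (Gapdhs, Pgk2, Hk1) and 1 was higher (Slc2a3), at an adjusted p under 0.1 in edgeR's quasi-likelihood test. Of all 21058 genes tested in this comparison, 13.4% were lower and 16.4% higher. In KI, 4 members were lower (the same 3 and Aldoart1) and 2 were higher (Slc2a3 and Pgk1), against 15.4% of all genes lower and 16% higher. Against a change of 1 log2 unit, Gapdhs passed in KO and in KI, where 1.13% and 1.42% of all genes passed as lower and 0.598% and 0.522% as higher. The median log2 fold change over the 10 members was -0.26 in KO and -0.28 in KI, beside 0.03 and 0.05 over all genes tested. Since both comparisons use the same WT libraries, their values are given side by side and not as support for each other.

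**Figure D2:**
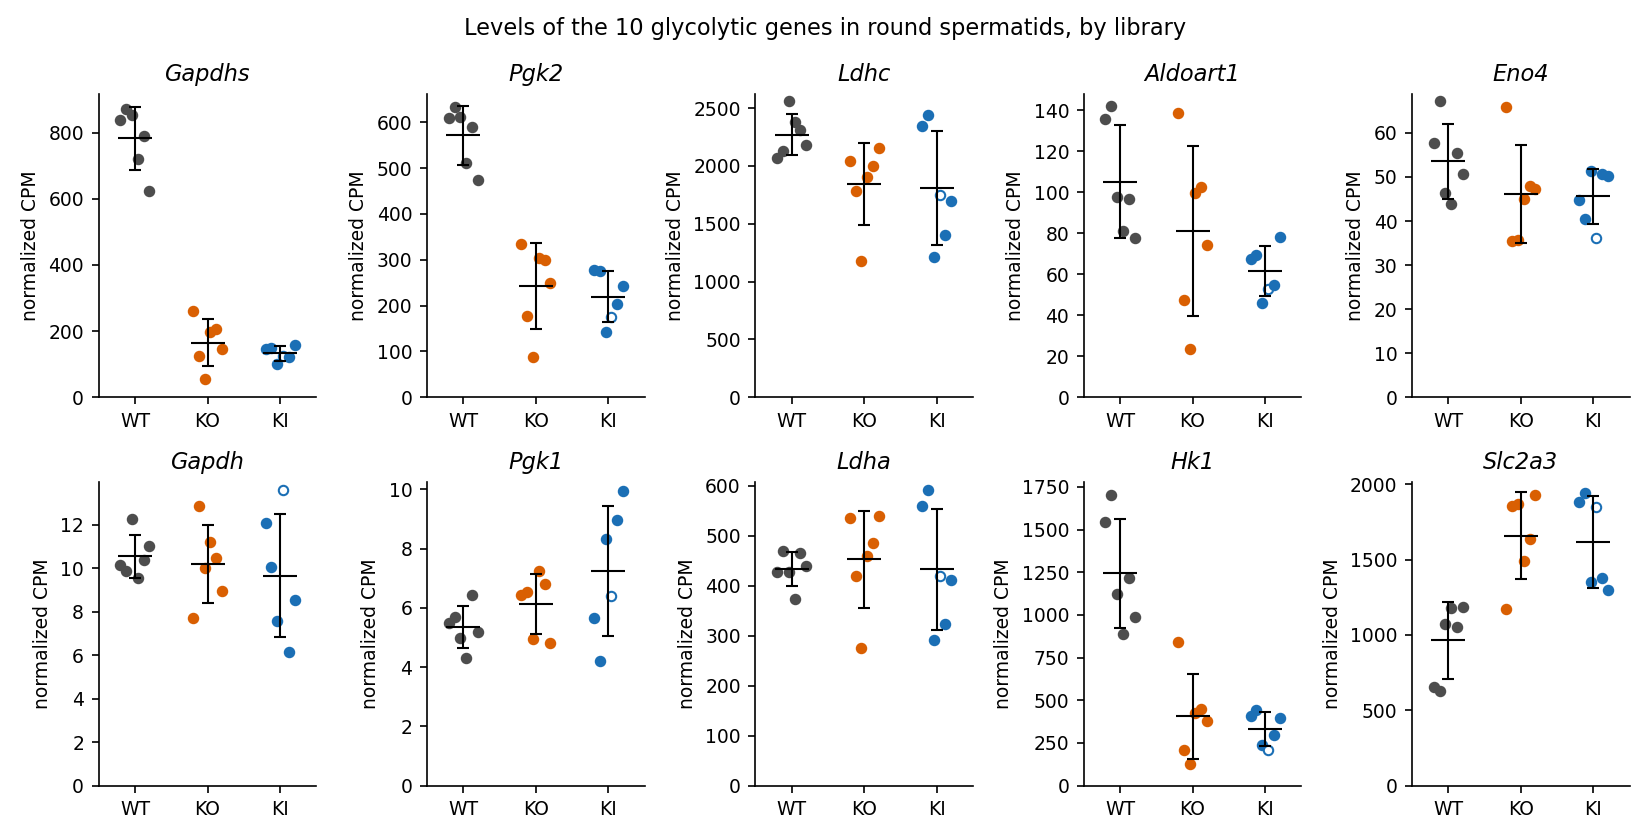
Normalized CPM of the 10 genes in each library (points) with the mean and SD over 6 libraries (bars), for WT, KO and KI; each axis starts at 0 and the open point is the library labelled KI 4. The WT points of Gapdhs, Pgk2 and Hk1 lie above every KO and KI point, while those of Gapdh and Ldha lie among them. How many of all genes separate in this way is not given here.

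Gapdhs, the enzyme of the sperm tail that oxidizes glyceraldehyde phosphate, had the largest fall of the 10. Its level ranged from 625 to 870.3 CPM in WT with a median of 814, 55.7 to 261 in KO with a median of 172, and 99.5 to 158 in KI with a median of 135. Every WT library was thus above every mutant library, though the share of all genes that separate in this way is not given here. The log2 fold change was -2.24 in KO (SE 0.25, a 4.74-fold fall, adjusted p = 4.67e-07 in edgeR, and 0.00188 against 1 log2 unit) and -2.56 in KI (SE 0.25, 5.91-fold, adjusted p = 6.27e-08, and 1.18e-04 against 1 log2 unit). Without the library labelled KI 4 the KI value was -2.54. In KO the libraries spread over a 4.69-fold range, with KO 3 lowest and KO 1 highest.

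Gapdh, the somatic paralog, was at a low level in every library. It lay between 9.55 and 12.3 CPM in WT, between 7.69 and 12.8 in KO and between 6.12 and 13.6 in KI, and the ranges of the genotypes overlapped. Its log2 fold change was -0.05 in KO (SE 0.17, adjusted p = 0.888) and -0.12 in KI (SE 0.17, adjusted p = 0.647, both edgeR), with 95% intervals of -0.39 to 0.30 and -0.47 to 0.22. The sum of both genes was 793 ± 94.5 CPM (SD, n = 6) in WT, 176 ± 71.2 for KO and 142 ± 22.5 for KI.

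Pgk2, the autosomal phosphoglycerate kinase of germ cells, also fell, and whether its fall differed in size from that of Gapdhs was not tested. It ranged from 474 to 634 CPM in WT with a median of 599.7. In KO it ranged from 87.7 to 335 with a median of 275, and in KI from 143 to 278 with a median of 223. The WT range of Pgk2 overlapped neither mutant range, though the share of all genes that separate in this way is not given here. Its log2 fold change was -1.24 in KO (SE 0.24, 2.36-fold, adjusted p = 4.83e-04) and -1.38 in KI (SE 0.24, 2.60-fold, adjusted p = 1.44e-04, both edgeR), and neither passed the test against 1 log2 unit.

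Pgk1, its X-linked somatic counterpart, was counted at between 4.32 and 6.44 CPM in WT, 4.81 and 7.25 in KO and 4.19 and 9.96 in KI, ranges that overlapped. Its log2 fold change was 0.20 in KO (SE 0.18, adjusted p = 0.504). In KI it rose by 0.43 (SE 0.18, adjusted p = 0.0870, edgeR), a call that was lost in 9 of the alternatives, with adjusted p-values from 0.110 to 0.231. Among these were the fits without WT 1, WT 2, WT 4, KI 3, KI 5 or KI 6, each alone.

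Ldhc, the germ-line lactate dehydrogenase, was the most counted of the paired genes and was not called in either mutant. Its level ranged from 2069 to 2556 CPM in WT with a median of 2244, 1175 to 2157 in KO with a median of 1952, and 1215 to 2437 in KI with a median of 1724. The ranges overlapped, and within the mutants KO 3, KI 3 and KI 5 were lowest while KO 6, KI 1 and KI 2 lay within the WT range. On the log2 scale the change was -0.30 in KO (SE 0.18, 95% interval -0.67 to 0.07, adjusted p = 0.246) and -0.33 in KI (SE 0.18, 95% interval -0.70 to 0.04, adjusted p = 0.191, both edgeR). Without KI 2 the KI value was -0.43 and passed the threshold (adjusted p = 0.0824).

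Ldha, its somatic neighbour on chromosome 7, lay between 373 and 469 CPM in WT, 276 and 540.1 in KO and 291 and 591 in KI. The WT range lay inside that of both mutants. Its log2 fold change was 0.06 in KO (SE 0.18, adjusted p = 0.858) and -0.0015 in KI (SE 0.18, adjusted p = 0.997, both edgeR), with 95% intervals of -0.31 to 0.43 and -0.37 to 0.37.

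The ratio of each testis-specific isoform to its paralog was then taken within each library, so that it does not depend on library scaling, as the log2 of the counts with 0.5 added to each. The log2 ratio of Gapdhs to Gapdh lay between 5.82 and 6.46 in WT, between 2.47 and 5.08 in KO and between 3.18 and 4.30 in KI. Every WT library was above every mutant library. The difference of means was -2.32 in KO (SE 0.38, 5.01-fold) and -2.40 in KI (SE 0.19, 5.27-fold). The log2 ratio of Pgk2 to Pgk1 lay between 6.50 and 6.93 in WT, 4.14 and 5.70 in KO and 4.10 and 6.03 in KI, again with no overlap. Its difference was -1.55 in KO (SE 0.26, 2.92-fold) and -1.80 in KI (SE 0.31, 3.48-fold). How often ratios of other gene pairs leave no overlap between WT and the mutants is not given here.

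The log2 ratio of Ldhc to Ldha separated the genotypes although neither gene passed the test alone. It lay between 2.18 and 2.67 in WT, between 1.94 and 2.09 in KO and between 2.04 and 2.11 in KI, so that the lowest WT library stood just above the highest mutant one. The spread was 0.19 (SD) in WT but 0.059 in KO and 0.024 in KI, in which the levels of each gene varied up to 2.03-fold between libraries. The difference was -0.36 in KO (SE 0.08, 1.28-fold) and -0.33 in KI (SE 0.08, 1.25-fold). For all 3 ratios, KO and KI each differed from WT with p = 0.00216 in the two-sided exact permutation test (n = 6 against 6), which is the smallest p this design allows, and 0.00325 after Benjamini-Hochberg adjustment over the 9 ratio comparisons. Leaving out the library labelled KI 4 gave differences in KI of -2.27, -1.76 and -0.32 for the 3 ratios in this order, with exact p no higher than 0.00433.

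**Figure D3:**
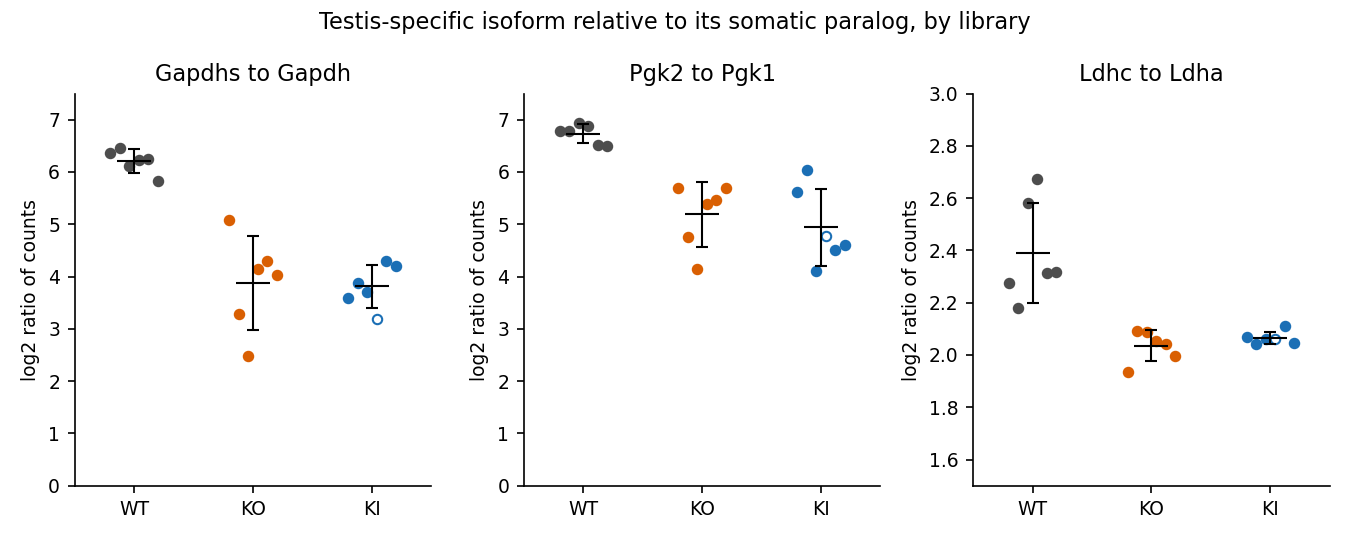
Log2 ratio of counts of the testis-specific isoform to its somatic paralog in each library (points) with the mean and SD over 6 libraries, by genotype; the axis of the Ldhc panel covers 1.5 to 3 and the others start at 0, and the open point is the library labelled KI 4. In all 3 panels the WT points lie above every KO and KI point, by the smallest margin for Ldhc to Ldha.

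Per length, the testis-specific isoform still made up nearly all of each pair in the mutants. Gapdhs was 99.5% ± 0.0858 (SD, n = 6) of the Gapdhs and Gapdh level in WT, 97.0% ± 1.96 in KO and 97.2% ± 0.794 in KI. Pgk2 was 99.3% ± 0.0860 of its pair in WT, 97.9% ± 0.982 in KO and 97.5% ± 1.07 in KI. Ldhc was 91.6% ± 0.996 of its pair in WT, 89.6% ± 0.388 in KO and 89.8% ± 0.155 in KI. With coding transcript lengths the shares were lower, the lowest mean being 84.4% for Ldhc in KO.

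How far reads can be assigned to a single gene differed between the members, though no 50-base window was shared between the paralogs of a pair. Of the 50-base windows of the longest coding transcript, 82.5% of those of Gapdh and 68.0% of those of Pgk1 also occurred in annotated transcripts of other genes, and reads in such windows may go uncounted. The share was 16.6% for Ldha, 5.79% for Aldoart1, 4.55% for Gapdhs, where the shared windows belong to an antisense RNA, and 0% for Pgk2 and Ldhc. Levels of Gapdh and Pgk1, and the sizes of the ratios that contain them, are therefore uncertain, while a comparison of the same ratio between genotypes uses the same windows in each. Gapdhs, Hk1, Gapdh and Eno4 overlap genes on the opposite strand, and the study counted reads by strand. Slc2a3 holds the pseudogene Gm4482 on its own strand, with a mean of 122 counts against 32097 for Slc2a3.

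Hk1, the hexokinase that opens the pathway and is made in germ cells as a variant without the mitochondrial binding domain, fell in both mutants. The count table does not separate its transcripts. It ranged from 889.8 to 1699.8 CPM in WT with a median of 1169, 128 to 842 in KO with a median of 403, and 207 to 441 in KI with a median of 349. No mutant library reached the WT range, although KO 1 at 842 came close and WT 1 and WT 2 stood above the other WT libraries. For this separation, too, the share of all genes is not given here. On the log2 scale the change was -1.62 in KO (SE 0.32, 3.07-fold, adjusted p = 7.43e-04) and -1.90 in KI (SE 0.32, 3.74-fold, adjusted p = 1.35e-04, both edgeR). Against 1 log2 unit the adjusted p in KI was 0.196, and it fell under 0.1 in 5 alternatives, among them the fits without KO 1 (0.0684) or KO 3 (0.0573). Without the library labelled KI 4, the lowest KI library for Hk1, the KI change was -1.80 and this adjusted p was 0.427 (edgeR). In KO Hk1 did not pass this test, and its adjusted p became 0.0748 without KO 1.

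Aldoart1, the sperm aldolase encoded by a retrocopy, was called in KI alone, and the difference between KI and KO was itself not called (adjusted p = 0.963, edgeR). It ranged from 77.8 to 142 CPM in WT with a median of 97.1, 23.6 to 139 in KO with a median of 87.0, and 45.9 to 78.1 in KI with a median of 61.1. The ranges overlapped in each comparison, and the KO libraries spread over a 5.89-fold range. The log2 fold change was -0.38 in KO (SE 0.28, adjusted p = 0.382) and -0.78 in KI (SE 0.28, adjusted p = 0.0481, both edgeR). The KI call was lost without WT 1 (adjusted p = 0.103), WT 2 (0.110) or KI 3 (0.106), with no filter on low counts (0.190) and with the closest pairs of libraries summed (0.307), and held without the library labelled KI 4 (0.0864).

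Eno4, the sperm enolase, lay between 43.9 and 67.3 CPM in WT, 35.4 and 65.9 in KO and 36.2 and 51.3 in KI, with overlapping ranges. Its log2 fold change was -0.21 in KO (SE 0.15, 95% interval -0.52 to 0.09, adjusted p = 0.336) and -0.23 in KI (SE 0.15, 95% interval -0.54 to 0.07, adjusted p = 0.282, both edgeR). Without KO 1, its highest KO library, the KO value was -0.34 and passed (adjusted p = 0.0741).

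Slc2a3, a glucose transporter of high affinity, was the member that rose in both mutants. It ranged from 629 to 1187 CPM in WT with a median of 1063, 1175 to 1929.7 in KO with a median of 1746, and 1297 to 1938 in KI with a median of 1614. WT 1 and WT 2 were low at 658 and 629, the other WT libraries lay between 1051 and 1187, and KO 1 was the single mutant library within the WT range. The log2 fold change was 0.78 in KO (SE 0.19, 1.72-fold, adjusted p = 0.00346) and 0.75 in KI (SE 0.19, 1.68-fold, adjusted p = 0.00462, both edgeR). The call held without WT 1 and without WT 2, but each of these fits kept the other of this close pair. They therefore cannot show how far the pair as a whole sets the size of the change. Over all fits that left out 1 library the change lay between 0.69 and 0.87 in KO and between 0.65 and 0.84 in KI. The Leydig markers also rose, and the part of RNA from other cells in the level of Slc2a3 was not tested.

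KI was compared with KO to ask whether loss of the phosphorylated form differs from loss of the protein. None of the 10 members differed by any amount in edgeR or in DESeq2, and 0 had an unadjusted p under 0.05. Over all genes 0.0855% were called by any amount and 0.00475% past 1 log2 unit. An unadjusted p under 0.05 (edgeR) was found for 930 of all 21058 genes, so a count of 0 among 10 says little about the members. The 95% interval of the log2 difference was -0.81 to 0.17 for Gapdhs, -0.63 to 0.34 for Pgk2, -0.39 to 0.34 for Ldhc, -0.94 to 0.36 for Hk1, -0.98 to 0.18 for Aldoart1 and -0.42 to 0.35 for Slc2a3. Differences within these bounds therefore remain possible. The exact permutation test of the ratios gave p = 0.857 for Gapdhs to Gapdh, 0.526 for Pgk2 to Pgk1 and 0.301 for Ldhc to Ldha (two-sided, n = 6 against 6). Without the library labelled KI 4, none of the 10 members was called either, with adjusted p from 0.680 to 0.981 in edgeR. The log2 difference was then -0.30 for Gapdhs, and that of Gapdh was -0.20, against -0.08 with this library. The exact permutation p-values of the 3 ratios without it were 0.905, 0.613 and 0.335.

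Several members had their lowest or highest value of a genotype in the same library. KO 3 was the lowest KO library for Gapdhs, Pgk2, Ldhc, Ldha, Aldoart1 and Hk1, and KI 3 was the lowest KI library for Gapdhs, Pgk2, Ldhc, Ldha and Aldoart1. KO 1 was the highest KO library for Gapdhs, Pgk2, Aldoart1, Hk1 and Eno4 and the lowest for Slc2a3 and Gapdh. The late spermatid markers summed to 1748 CPM in KO 3 and 2297 in KI 3, which were also the lowest of their genotypes, and to 3495 in KO 1, which was not the highest. KO 3 also had the highest share of counts on mitochondrial genes (23.6%) and KO 1 the lowest (7.89%). Whether the changes of the members follow the late spermatid markers or the mitochondrial share was not tested. The map of each library relative to WT shows the members beside the late spermatid markers.

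**Figure D4:**
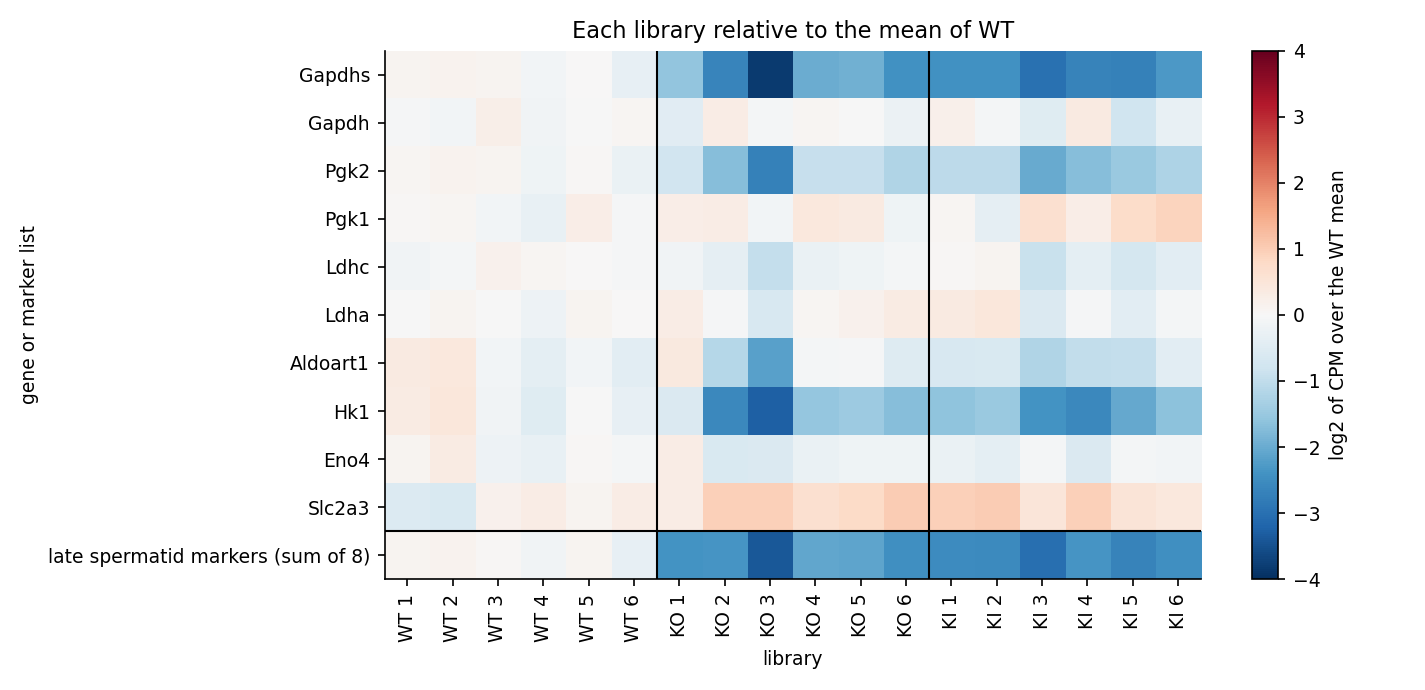
Log2 of the normalized CPM of each library (columns) over the WT mean, for the 10 genes and for the summed late spermatid markers (bottom row); blue is lower and red higher than in WT. Gapdhs, Pgk2 and Hk1 are blue in every KO and KI library and darkest in KO 3, whereas Gapdh, Ldha and Eno4 are paler.

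The genes whose pattern was most like that of each testis-specific isoform were found by Pearson's r of log2 CPM over the 18 libraries, among 8517 other genes with a mean of at least 10 CPM. These r values describe libraries that share genotype and depth. For Gapdhs they were Csnk1g2 (r = 0.998), 2810408A11Rik (0.998), Akap4 (0.997), Ubl4b (0.997) and Reep6 (0.997). Akap4, one of the late spermatid markers, averaged 2319 CPM in WT against 541 in KO and 458 in KI. For Pgk2 they were Hmox2 (0.994), Nbr1 (0.994), Ddi1 (0.992), BC106175 (0.990) and Ppp1r11 (0.990). For Ldhc they were Tubb4b (0.993), Gabarap (0.985), Jpt1 (0.983), Eif5a (0.980) and Ndufb8 (0.980), and Tubb4b, a tubulin, had means of 1468, 1153 and 1127 CPM. With the genotype means removed, r was at least 0.972 for each of these genes, which were chosen on the same libraries, so this value is no separate evidence of likeness.

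Other genes of the pathway were taken from 4 lists of 55 genes, of which 49 passed the filter. In KO 11 were lower and 7 higher by any amount, and in KI 11 were lower and 7 higher. Over all genes 13.4% were lower and 16.4% higher in KO, and 15.4% lower and 16% higher in KI, so the number of higher pathway genes was not above the share over all genes. Among 21 tested glycolytic enzymes, 7 were lower in each mutant and 3 were higher in KO and 2 in KI. Gpi1, which turns glucose phosphate into fructose phosphate, had the largest change of the enzymes, from a mean of 332 CPM in WT (range 267 to 368) to 94.5 in KO (58.1 to 113) and 91.4 in KI (83.2 to 96.7). Its log2 fold change was -1.81 in KO (SE 0.14, adjusted p against 1 log2 unit 5.42e-04) and -1.86 in KI (SE 0.14, adjusted p 2.32e-04, edgeR). Pkm, pyruvate kinase, fell by 1.43 in KO and by 1.56 in KI on the log2 scale (adjusted p against 1 log2 unit 0.0947 and 0.0116, edgeR). These 2 genes were the pathway genes that passed 1 log2 unit.

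Aldoa and Eno1, an aldolase and an enolase of many tissues, were lower in both mutants, whereas Gapdh and Ldha were not called. The count table does not separate the transcripts of a gene. In WT Aldoa had a higher mean than Aldoart1 (209.9 against 105 CPM). Aldoa, which holds 94 of the 50-base windows of Aldoart1, went from a mean of 209.9 CPM in WT to 124 and 115 in the mutants (log2 -0.76 and -0.87, adjusted p = 0.00715 and 0.00219, edgeR). Eno1 went from 226 CPM to 130.2 and 113 (adjusted p = 0.0153 and 0.00263, edgeR). Aldoart2, a second aldolase retrocopy, went from 181 CPM to 90.0 and 81.8 (log2 -1.01 and -1.15, adjusted p = 0.00229 and 6.68e-04, edgeR). Slc2a1, a glucose transporter found in most cells, was near 1 CPM or below in each genotype on average and was not called.

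The counts in the smaller lists are to be read against the same shares, and several are near them. Among the 8 tested regulators of flux, 2 were lower and 1 higher in each mutant. Pfkfb3, one of the kinase-phosphatases that set the level of an activator of phosphofructokinase, fell from 46.2 CPM to 24.6 in KO and 20.8 in KI, and Pfkfb4 fell from 37.4 to 31.1 and 29.8, while Pfkfb1 rose from 2.27 to 4.96 and 4.86. Among the 12 genes of pyruvate entry and glycerol feed, 2 were lower in each mutant, and 2 were higher in KO and 3 in KI. Gpd2, the mitochondrial glycerol phosphate dehydrogenase, fell from 416 CPM to 239 and 191, and Gk, glycerol kinase, rose from 0.815 to 2.30 and 2.39. Pdha1, the X-linked subunit of pyruvate dehydrogenase, rose from 0.584 to 1.11 and 1.16 (adjusted p = 0.0727 and 0.0488, edgeR). Its WT range (0.237 to 0.803 CPM) overlapped those of KO (0.563 to 1.70) and KI (0.561 to 2.03). Both Gk and Pdha1 were at low levels in WT, with lowest WT values of 0.411 and 0.237 CPM. Among the 8 tested sugar and lactate transporters, Slc2a8 was the only gene called, rising from 22.7 CPM to 29.3 and 32.0. In KI against KO none of the 49 was called by edgeR or DESeq2. An unadjusted p under 0.05 (edgeR) was found for 0 of them, against 930 of all 21058 genes. The plot of fold changes sets these genes beside the members.

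**Figure D5:**
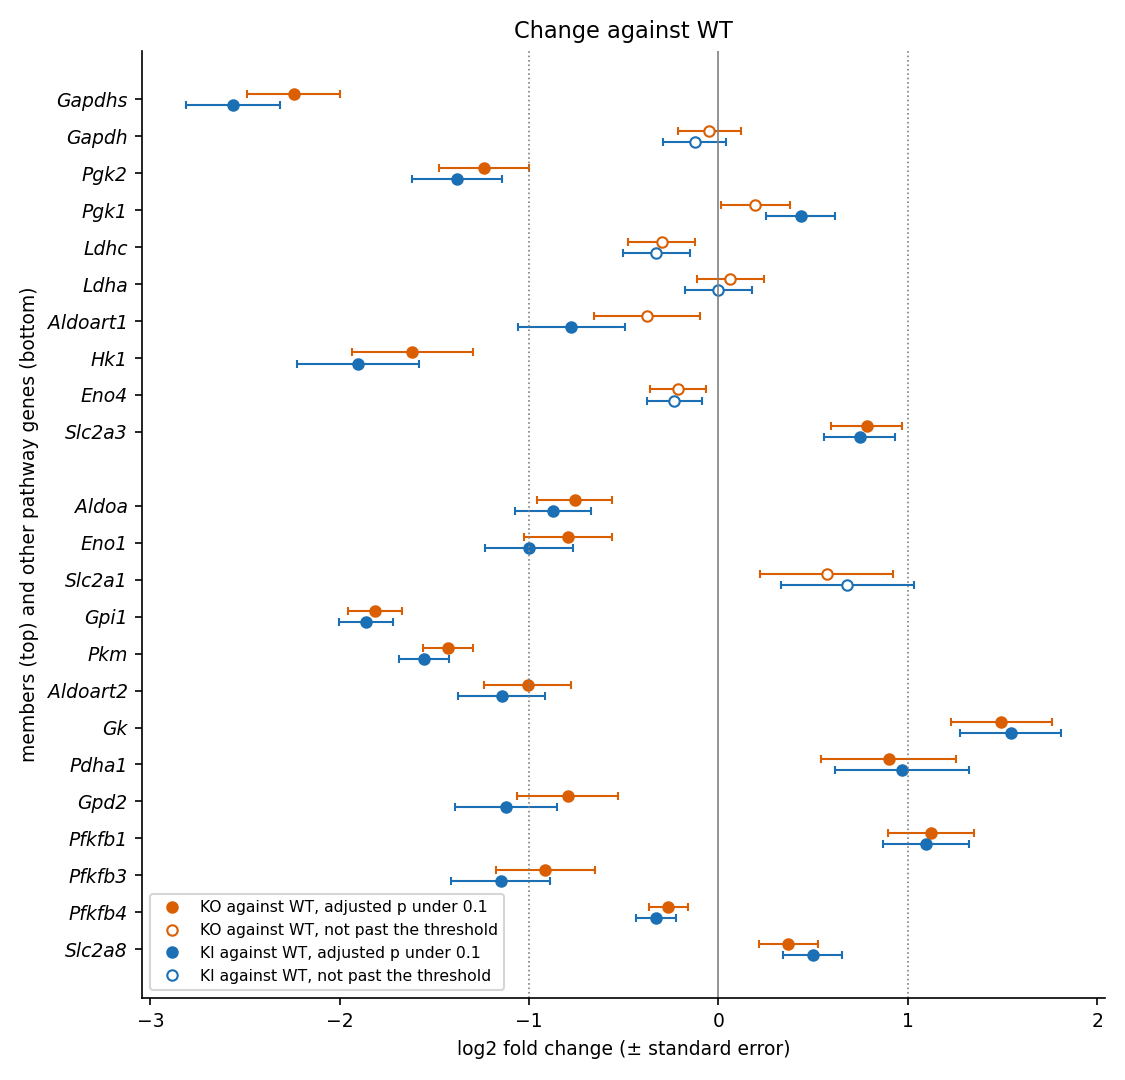
Log2 fold change against WT with its standard error for KO (orange) and KI (blue), for the 10 members (top) and the named pathway genes (bottom); filled points have an adjusted p under 0.1 and dotted lines mark 1 log2 unit. Gapdhs lies farthest to the left at -2.24 and -2.56, Gapdh and Ldha lie near 0, and Slc2a3 lies to the right.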

How the data were processed

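RNA of round spermatids was measured in 18 libraries, 6 each of WT, KO and KI. Per the labels and the study's methods, the authors trimmed paired reads (cutadapt 3.4), aligned them to GRCm38 (mm10) with STAR 2.7.8a and counted fragments per gene by strand with featureCounts (Subread 2.0.1), and the deposited values are these raw counts. Reads that map to several places were not counted and duplicates were kept, so copies of a gene can lose reads. From the counts, edgeR 4.0.16 (R 4.3.3) was used here with TMM scaling, filterByExpr and a robust quasi-likelihood fit of genotype over all 18 libraries. Each of 21058 genes was tested for a change of any amount and against 1 log2 unit (glmTreat), with Benjamini-Hochberg adjustment over all of them and a threshold of 0.1. Standard errors are the fold change over the root of F. Levels are CPM of the scaled library. Isoform ratios were compared by exact permutation over libraries. The fitting was tested on simulated data. DESeq2 1.42.0, other scalings, filters, a replicate block, merged close pairs and leaving out each library were alternatives. Transcript lengths and shared windows come from GENCODE M21, and of 2 IDs named Aldoa the more counted was used. The genes named beyond the 10 members are the counterparts Aldoa, Eno1 and Slc2a1, pathway genes past 1 log2 unit, up to 3 called genes per list with the largest change in KO, and the 5 genes nearest in pattern to Gapdhs, Pgk2 and Ldhc. Members and lists were chosen with earlier results of these data known.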

Additional observations from a re-analysis of the deposited data

How the results depend on the processing

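Over all alternatives no result changed direction past its threshold. The number of members past 1 log2 unit in KI against WT, 1 as reported, was 2 when only the 2 genotypes were fitted, 2 with the replicate block and 2 with the interval form of the test, which was added after seeing the data. It ranged from 1 to 2 over the fits that left out 1 library (2 without KO 1 or KO 3), and the added gene was Hk1 each time. In KO against WT the same count ranged from 1 to 2 (2 without KO 1). Members changed by any amount ranged from 4 to 5 in KO and from 4 to 7 in KI when 1 library was left out. With the closest pairs of libraries within a genotype summed, which leaves 3 WT, 5 KO and 4 KI samples, 10 pathway genes were called in KO and 10 in KI, against 18 each as reported. With the mean of such pairs as 1 sample, the log2 ratio of Pgk2 to Pgk1 in KI differed from WT by -1.86 with an exact permutation p of 0.0571. The log2 ratios without each library in turn ranged from -2.56 to -2.04 (Gapdhs to Gapdh), -1.65 to -1.34 (Pgk2 to Pgk1) and -0.40 to -0.30 (Ldhc to Ldha) in KO.

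The replicate numbers were not taken as pairs: 5 of 18 libraries correlated best with their own number, and 7 of 18 pairs had a correlation over 0.1 (range -0.44 to 0.48). Beside the Hk1 call, the replicate block lost the call of Pgk1 in KI (adjusted p = 0.128, edgeR) and left 4 members called in KO and 5 in KI.

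The lowest count of any member in a library was 89. The floor of 3 counts covers counting error only, whereas the 95% intervals come from the edgeR fit and cover the spread between libraries.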
